A study of Mus musculus with 6 samples.

Results

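The longest transcription units of the autosomes, those with a gene body over 400 kb, were examined in nascent RNA of proliferating muscle stem cells (MuSCs). The gene body was taken as the authors list it, from 400 nt after the start of the chosen isoform to its end. Ion channel and receptor genes of the Kcn, Cacn, Gri, Grm and Gabr families, collagens and protocadherins were left out by symbol, which removed 9 genes. This left 132 very long genes of 14063 autosomal genes, or 0.939% of them, in a table of 14546 genes. Together they made up 13.7% of the listed autosomal gene body length. Still among them were the predicted gene models *Gm42416*, *Gm37013* and *Gm37388*, which overlap each other and span protocadherin genes such as *Pcdhb21*. Their signal near the start was too low for them to be tested. The choice used only length, chromosome and symbol. The length, however, is that of the isoform that the authors kept for its signal near the start in these libraries. Membership thus depends in part on measured values.

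PRO-seq maps RNA polymerases that are engaged in transcription, since in a run-on reaction, in permeabilized cells per the labels and in isolated nuclei per the methods, they extend their nascent RNA with biotin-labelled nucleotides. There were 3 Ctrl and 3 *Kmt5b* sKO libraries. Ctrl cells carried the genotype Pax7CreERT/Suv4-20h1WT and mutant cells Pax7CreERT/Suv4-20h1KO, Suv4-20h1 being another name of *Kmt5b*, the methyltransferase that converts H4K20me1 to H4K20me2. Both groups carried the tamoxifen-inducible Cre recombinase driven by *Pax7*, which deletes the floxed allele in satellite cells and not in other cells of the muscle. The MuSCs came from limb and trunk muscle of adult mice, were purified with magnetic beads and were expanded in medium with serum, LIF and bFGF. The study describes the libraries as biological replicates, but whether each came from separate mice is not given in the sources used here, so p-values measure the spread between these libraries.

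RNA polymerase needs hours to cross a very long gene, and genes of this size are known for large introns and for an excess of members with roles in adhesion and in neurons. Several of them lie at common fragile sites, chromosomal regions that break when replication is slowed. In the muscle lineage, very long genes encode parts of the dystrophin-associated complex, which links the cytoskeleton to the matrix.

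The deposited TSS values cover the first 400 nt of the isoform and are named TPM in their header. They are given here as RPM, as all these regions are equally long. The total they are scaled to is smaller than all reads of a library. The gene body values are TPM, which also divides by length. As low values are whole multiples of what a single read is worth, the reads behind them could be worked out. In a gene body of 400 kb a read is worth 0.0017 to 0.0038 TPM, less than the rounding of the deposited values. Read counts of very long gene bodies are therefore estimates. The listed genes held 926904 to 3246052 TSS reads and 7425424 to 16249143 gene body reads per library. The median very long gene that was tested had 1954 to 2940 gene body reads per library, against 203 to 468 for all genes tested. Its TSS region, by contrast, held only 22.5 to 52 reads, so the gene body was measured more precisely. *Kmt5b* itself did not pass the test, with a gene body log2 fold change of 0.14 and an adjusted p of 0.70 in limma. In its TSS region each mutant library lay above each Ctrl library, at a log2 fold change of 0.27 (limma adjusted p = 0.72). The deletion thus cannot be read from its transcription here. All 10 markers of muscle stem cells and myoblasts were listed and their summed gene body level was 2361 to 3414 TPM in Ctrl against 3296 to 4357 TPM in *Kmt5b* sKO. All 8 markers of mature muscle fibres were listed too, summing to 645 to 1266 TPM in Ctrl against 1512 to 2044 TPM in *Kmt5b* sKO. All 5 of these fibre markers that could be tested had a positive log2 fold change, and 0 passed the test. Their values beside the very long genes are taken up again below.

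The 132 genes lay on all 19 autosomes, 74 on the plus and 58 on the minus strand. The median gene body was 518 kb long, against 20.4 kb for all autosomal genes, and 17 genes exceeded 1000 kb. Just inside the limit lay *Fam189a1* with 400079 nt, *Sgcd* with 400337 nt and *Dock4* with 400522 nt, and just outside it *Bnc2* with 399523 nt. The isoforms had a median of 18 exons, against 8 for the other genes tested. Exons took up 0.891% of the gene body at the median very long gene and 13.2% at the median of the others, so almost all of the length of a very long gene was intron. Reads in exons and introns were not counted apart. The largest intron held 30.9% of the length and was the first intron in 34.0% of the very long genes, against 47.3% of the others.

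Of the 132 genes, 106 averaged 0.5 or more over the 6 libraries in each region and were tested together with all 12446 autosomal genes that did so. Another 11 had a TSS mean under 0.5 and 15 a gene body mean under 0.5. For the genes tested, differences between genotypes were taken as log2(value + 0.5), which understates the change of low genes, and a call needed a limma p under 0.1 after Benjamini-Hochberg adjustment over all genes.

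The promoters of 3 genes are shown because *Sgcd* and *Spock1* carried the changes called in the TSS region and *Diaph3* was the gene that fell in the gene body. The sequences run from 250 bases before to 50 bases after the first base of the listed isoform, on GRCm38, all on the minus strand and printed in the direction of transcription. *Sgcd* is at chr11:47379473-47379772, *Spock1* at chr13:57908283-57908582 and *Diaph3* at chr14:87141175-87141474. Capitals mark CANNTG, the E-box core, which is its own reverse complement.
Sgcd: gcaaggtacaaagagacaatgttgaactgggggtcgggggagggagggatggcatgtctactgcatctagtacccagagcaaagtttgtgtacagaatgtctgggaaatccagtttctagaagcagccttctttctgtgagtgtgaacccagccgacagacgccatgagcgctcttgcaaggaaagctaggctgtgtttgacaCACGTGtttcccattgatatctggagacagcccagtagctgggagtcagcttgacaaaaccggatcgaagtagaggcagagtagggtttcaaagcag
Spock1: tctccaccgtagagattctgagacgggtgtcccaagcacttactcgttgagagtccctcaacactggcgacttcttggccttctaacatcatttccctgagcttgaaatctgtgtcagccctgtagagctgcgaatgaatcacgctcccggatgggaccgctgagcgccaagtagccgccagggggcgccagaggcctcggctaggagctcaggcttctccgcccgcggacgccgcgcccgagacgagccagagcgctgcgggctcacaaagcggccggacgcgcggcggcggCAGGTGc
Diaph3: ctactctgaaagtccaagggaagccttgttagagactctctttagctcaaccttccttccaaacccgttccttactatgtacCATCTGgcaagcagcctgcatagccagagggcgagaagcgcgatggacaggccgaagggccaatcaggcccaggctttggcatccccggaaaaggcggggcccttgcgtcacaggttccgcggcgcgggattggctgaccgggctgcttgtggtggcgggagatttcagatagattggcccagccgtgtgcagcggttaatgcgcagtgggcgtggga

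Each of these windows held 1 E-box core. It was present in 67.9% of the 106 very long genes and in 62.4% of all genes tested. The observed over expected ratio of CpG, which is high in CpG islands, was 0.38 in the *Sgcd* window, 0.94 in that of *Spock1* and 0.69 in that of *Diaph3*. A ratio over 0.6 was found in 77.4% of very long genes and 72.6% of all genes, with a median of 0.82 against 0.77. TATAAA, on either strand, was found in 1 of the 106 very long genes tested, *Tmem117*, or 0.943% of them, against 6.64% of all genes. CCAAT, on either strand, was found in 31.1% and 38.1%, and 3 times in the *Diaph3* window. A match describes letters and not binding.

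Per length, very long genes were transcribed at a low level. The median of their gene body means was 4.54 TPM against 15.8 TPM for all genes tested, and 13 of 106 lay above the latter. At the TSS region the medians were 12.2 RPM and 23.0 RPM, and 31 of 106 lay above the median of all genes. The very long genes nevertheless took 4.53% to 5.70% of all listed gene body reads, while they held 0.359% to 0.439% of the TSS reads. Reads of a gene that lies within another listed gene on the same strand were counted for both. Levels were lower in each longer class, from a median of 19.7 TPM for genes under 10 kb to 10.05 TPM at 100 to 200 kb and 6.33 TPM at 200 to 400 kb.

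The pausing index, the TSS value divided by the gene body value, compares polymerases near the start with those in the body. The regions are scaled to separate totals, so a change of the index shared by all genes would not show. Its median over genes with signal at both places in every library, 92 of them very long, rose with length in the Ctrl mean from 1.20 under 10 kb to 1.73 at 100 to 200 kb, 2.17 at 200 to 400 kb and 3.24 ± 0.55 (SD, n = 3) over 400 kb. The *Kmt5b* sKO mean over 400 kb was 3.14 ± 0.25 (SD, n = 3). The library medians of the very long genes were 3.81, 2.72 and 3.19 in Ctrl, compared with 3.13, 3.39 and 2.89 in *Kmt5b* sKO, so the groups overlapped.

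**Figure D1:**
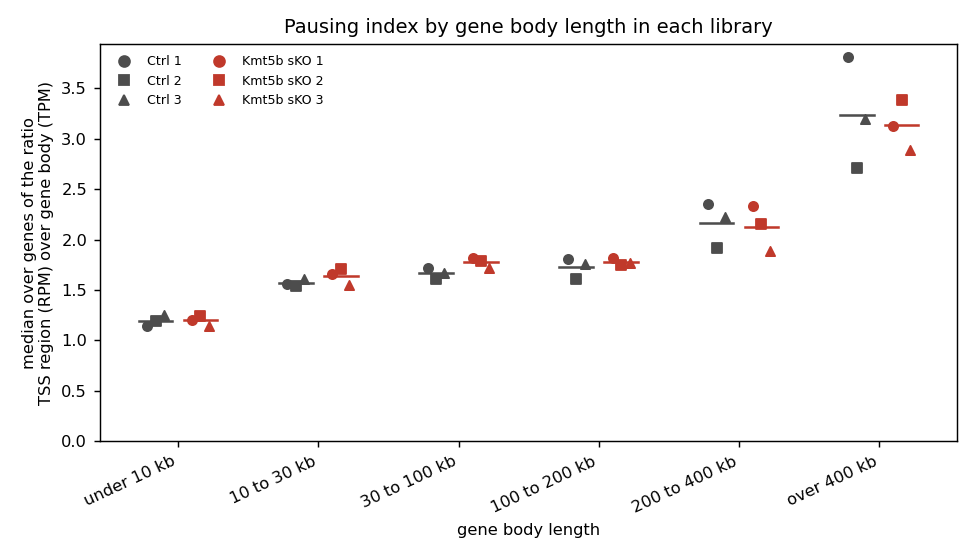
Median pausing index (TSS region in RPM over gene body in TPM, vertical axis) in classes of gene body length (horizontal axis). Each point is 1 library and bars are group means; the very long genes, over 400 kb, stand highest in every library, from 2.72 to 3.81, with Ctrl and *Kmt5b* sKO overlapping.

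The highest gene body level among very long genes was that of *Gphn*, which encodes gephyrin, a scaffold of inhibitory synapses that also makes molybdenum cofactor. It measured 228.6, 241.3 and 59.8 TPM in Ctrl against 234.4, 160.0 and 275.3 TPM in *Kmt5b* sKO. Ctrl replicate 3 stood far below all others, and the log2 fold change of 0.55 was not called (limma adjusted p = 0.70) and was -0.11 without that library. *Lars2*, a shorter gene for a mitochondrial leucyl-tRNA synthetase, had its lowest value in the same library, with 3029, 3474 and 799 TPM in Ctrl against 3048, 2147 and 4071 TPM in *Kmt5b* sKO. A stretch of 244 nt in the *Gphn* gene body, in the sense orientation of both genes, was 97.5% identical to one in *Lars2*, and its part in the *Gphn* level was not tested.

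*Camk1d*, a calcium/calmodulin-dependent protein kinase, came next with 70.0, 95.9 and 22.9 TPM in Ctrl against 69.4, 73.1 and 77.9 TPM in *Kmt5b* sKO. It too was lowest in Ctrl replicate 3, and its log2 fold change of 0.45 became -0.16 without it. The TSS region of *Camk1d* had a mean of only 3.49 RPM, below the median of 12.2 RPM of very long genes. Where its gene body reads start was not tested. *Celf2*, an RNA-binding regulator of splicing, measured 58.0, 63.6 and 51.0 TPM in Ctrl against 79.7, 73.9 and 73.4 TPM in *Kmt5b* sKO. All mutant libraries lay above all Ctrl libraries, yet the log2 fold change of 0.40 did not pass the test (limma adjusted p = 0.20). *Utrn*, the dystrophin homologue utrophin, had a mean of 29.2 ± 5.5 TPM in Ctrl against 35.4 ± 4.8 TPM in *Kmt5b* sKO (SD, n = 3 each). *Snd1*, a nuclease-domain coactivator, had 31.5 ± 8.2 and 32.5 ± 8.9 TPM. For both, the libraries of the groups overlapped.

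In the gene body, 4 of the 106 very long genes rose and 1 fell in *Kmt5b* sKO. This is 4.72% of them, beside 2.87% of all 12446 genes called in either direction. The 4 that rose compare with 1.53% of all genes called higher, and the 1 that fell with 1.33% called lower. All 5 stood outside the range of the other group in every library, as did 21.4% of all genes in either direction. Selection by a small p favours such separation, so it adds no support.

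*Sgcd* encodes delta-sarcoglycan, a muscle membrane protein of the dystrophin-associated complex. Its gene body measured 2.62, 4.87 and 2.02 TPM in Ctrl against 9.63, 8.84 and 10.45 TPM in *Kmt5b* sKO. The lowest mutant library was thus above the highest Ctrl library, Ctrl replicate 2. The log2 fold change was 1.54 ± 0.28 (SE), with a limma adjusted p of 0.071. The TSS region went from 5.57, 14.94 and 7.01 RPM to 36.71, 29.72 and 25.76 RPM, again without overlap. There the log2 fold change was 1.80 ± 0.36 (SE) and the limma adjusted p 0.038, on 23 to 112 reads per library. It was the single very long gene called in both regions.

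*Prkg1*, a cGMP-dependent protein kinase whose gene body spans 1197 kb, measured 1.20, 1.51 and 1.14 TPM in Ctrl against 3.47, 3.28 and 4.77 TPM in *Kmt5b* sKO. The groups were well separated, with a log2 fold change of 1.27 ± 0.22 (SE, limma adjusted p = 0.066). At its TSS region, on only 5 to 22 reads per library, the values of 4.36, 2.87 and 1.89 RPM in Ctrl against 2.95, 5.94 and 10.12 RPM in *Kmt5b* sKO overlapped.

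*Pkhd1* encodes fibrocystin, the membrane protein mutated in recessive polycystic kidney disease. It measured 3.91, 4.89 and 4.07 TPM in Ctrl against 7.75, 9.07 and 12.98 TPM in *Kmt5b* sKO, with mutant replicate 3 highest. The log2 fold change was 1.097 ± 0.22 (SE, limma adjusted p = 0.078). *Reln* encodes reelin, a secreted glycoprotein that guides neuronal migration. It measured 1.41, 0.96 and 1.26 TPM in Ctrl against 2.93, 3.84 and 2.47 TPM in *Kmt5b* sKO, a log2 fold change of 1.06 ± 0.23 (SE, limma adjusted p = 0.090). In the TSS region both had positive log2 fold changes, 1.16 for *Pkhd1* and 1.51 for *Reln*, with overlapping libraries and limma adjusted p of 0.34 and 0.27.

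*Diaph3*, a formin that assembles actin filaments and acts in cytokinesis, was the very long gene that fell. Its gene body measured 10.21, 10.09 and 6.69 TPM in Ctrl against 3.85, 4.68 and 4.61 TPM in *Kmt5b* sKO. Every mutant library lay below Ctrl replicate 3, the lowest of its group. The log2 fold change was -0.94 ± 0.21 (SE, limma adjusted p = 0.092). The TSS region measured 70.45, 27.00 and 27.66 RPM in Ctrl against 15.73, 24.43 and 15.18 RPM in *Kmt5b* sKO, a log2 fold change of -1.04 ± 0.34 (SE) that was not called (limma adjusted p = 0.18). On the recovered reads, *Diaph3* was called lower in the TSS region, with an adjusted p of 0.071 in edgeR and 0.058 in DESeq2. In a limma fit of all 14063 genes without the filter on low values, the gene body call of *Diaph3* was lost. Those of the 4 genes that rose were kept.

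In the TSS region, 2 of the 106 very long genes rose, *Sgcd* and *Spock1*, and 0 fell. This is 1.89%, beside 1.66% of all genes called in either direction and 0.932% called higher. At an unadjusted p under 0.05 in limma there were 22, or 20.8% beside 11% of all genes, and 18 of them were higher, beside 7.35%. *Spock1* encodes testican, a secreted proteoglycan. Its TSS region measured 0.00, 0.57 and 1.52 RPM in Ctrl against 5.24, 5.94 and 9.20 RPM in *Kmt5b* sKO, which stands for only 0 to 20 reads per library. The log2 fold change was 2.79 ± 0.60 (SE, limma adjusted p = 0.047). Its gene body went from 0.27, 0.86 and 0.62 TPM to 1.78, 1.62 and 2.24 TPM without overlap. On 192 to 1040 reads per library, the log2 fold change of 1.17 ± 0.28 (SE) lay just outside the threshold, with a limma adjusted p of 0.106.

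*Tmem117*, which encodes a transmembrane protein, lay just outside it as well. It measured 3.12, 7.23 and 3.99 TPM in Ctrl against 11.04, 10.39 and 11.84 TPM in *Kmt5b* sKO in the gene body. The log2 fold change was 1.21 ± 0.28 (SE, limma adjusted p = 0.1001). The TSS region measured 10.17, 12.64 and 10.04 RPM and 22.62, 26.41 and 20.70 RPM, again without overlap, with a log2 fold change of 1.05 ± 0.30 (SE, limma adjusted p = 0.115).

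**Figure D2:**
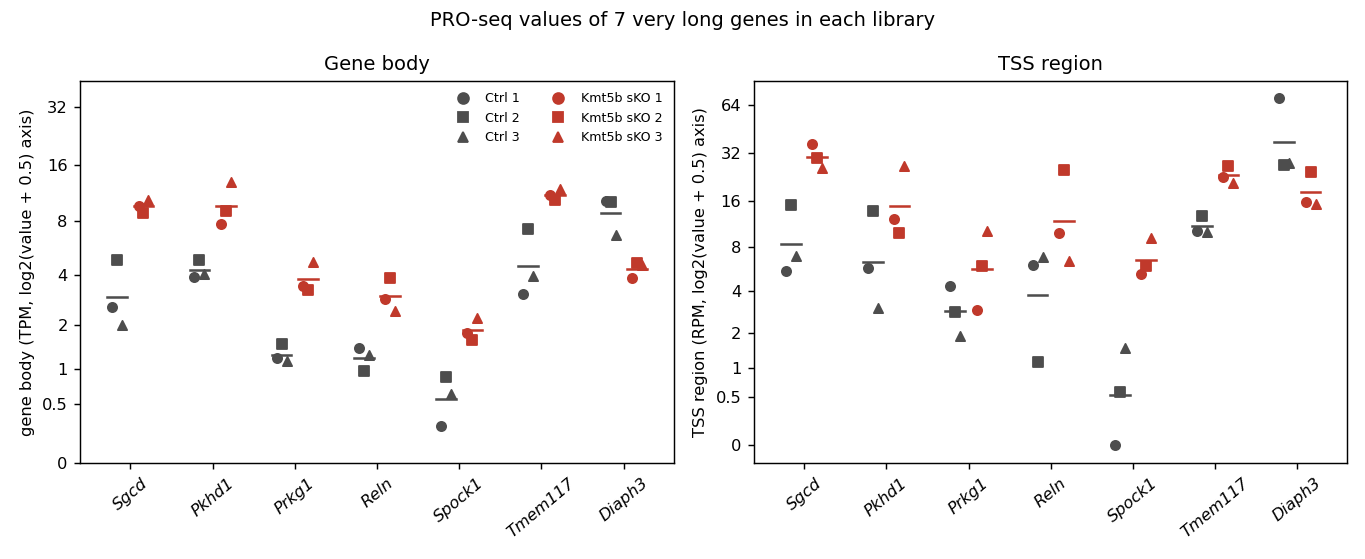
Gene body (left, TPM) and TSS region (right, RPM) of 7 very long genes, on an axis of log2(value + 0.5), with 1 point per library and bars for the group means. In the gene body, mutant libraries of *Sgcd*, *Pkhd1*, *Prkg1*, *Reln*, *Spock1* and *Tmem117* lie above all Ctrl libraries and those of *Diaph3* below them, while in the TSS region *Pkhd1*, *Prkg1* and *Reln* overlap.

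These calls were sensitive to single libraries. Leaving out Ctrl replicate 1, or mutant replicate 1, 2 or 3, left 0 very long genes and 0 of all 12446 genes called in the gene body by limma, with 19 to 21 very long genes at an unadjusted p under 0.05. Leaving out Ctrl replicate 2 kept *Sgcd* and *Prkg1* and added *Tmem117*. In the TSS region both calls were lost with Ctrl replicate 1 or mutant replicate 1 or 3 left out. With Ctrl replicate 2 left out, 7 very long genes were called, beside 408 of all 12446 genes. The recovered reads gave more calls in the gene body, 20 very long genes with edgeR (19 higher) and 27 with DESeq2 (24 higher), including all 5 named above. Both tools also called more of the 12446 genes, 748 and 1295.

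Beyond single calls, more very long genes had a higher than a lower gene body value in *Kmt5b* sKO. The log2 fold change was positive in 77 and negative in 29, or 72.6% positive beside 53.9% of all genes. The median was 0.17 against 0.02. Values are scaled to a total per library, so changes are relative to the other genes. A rise shared by all genes would not show. At an unadjusted p under 0.05 in limma there were 24 very long genes, or 22.6% beside 15.8% of all genes. Of these, 22 were higher, beside 9.38% of all genes, and 2 lower, beside 6.44%. The libraries of both groups did not overlap in 37, or 34.9%, beside 21.4% of all genes.

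In the TSS region, 63 very long genes had a positive and 43 a negative log2 fold change, or 59.4% positive beside 58.2% of all genes, with a median of 0.23 against 0.08. Libraries did not overlap in 24, or 22.6%, beside 15.6%. The gene body and TSS region come from the same libraries, so their values do not stand as separate evidence. Marker lists of other cell types moved with the genotype too. The summed gene body level of the mature fibre markers, given above, did not overlap between the groups. Of 6 Schwann cell and neuron markers, 4 were listed, none at 0, and their sum was 10.6 to 12.7 TPM in Ctrl against 17.5 to 25.7 TPM in *Kmt5b* sKO. All 3 of these that were tested had a positive log2 fold change and 1 rose, *Sox10*, a transcription factor of Schwann cells, from a mean of 3.29 to 10.8 TPM (log2 fold change 1.56, limma adjusted p = 0.077). The 3 of 6 endothelial markers that were listed summed to 2.50 to 4.23 TPM against 4.38 to 5.05 TPM. The sums of the muscle stem cell, fibro-adipogenic, blood and smooth muscle markers overlapped. The part of these cell types in the results for very long genes was not tested. In these bulk samples, more cells of a type that transcribes such genes cannot be told apart from more transcription per cell.

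**Figure D3:**
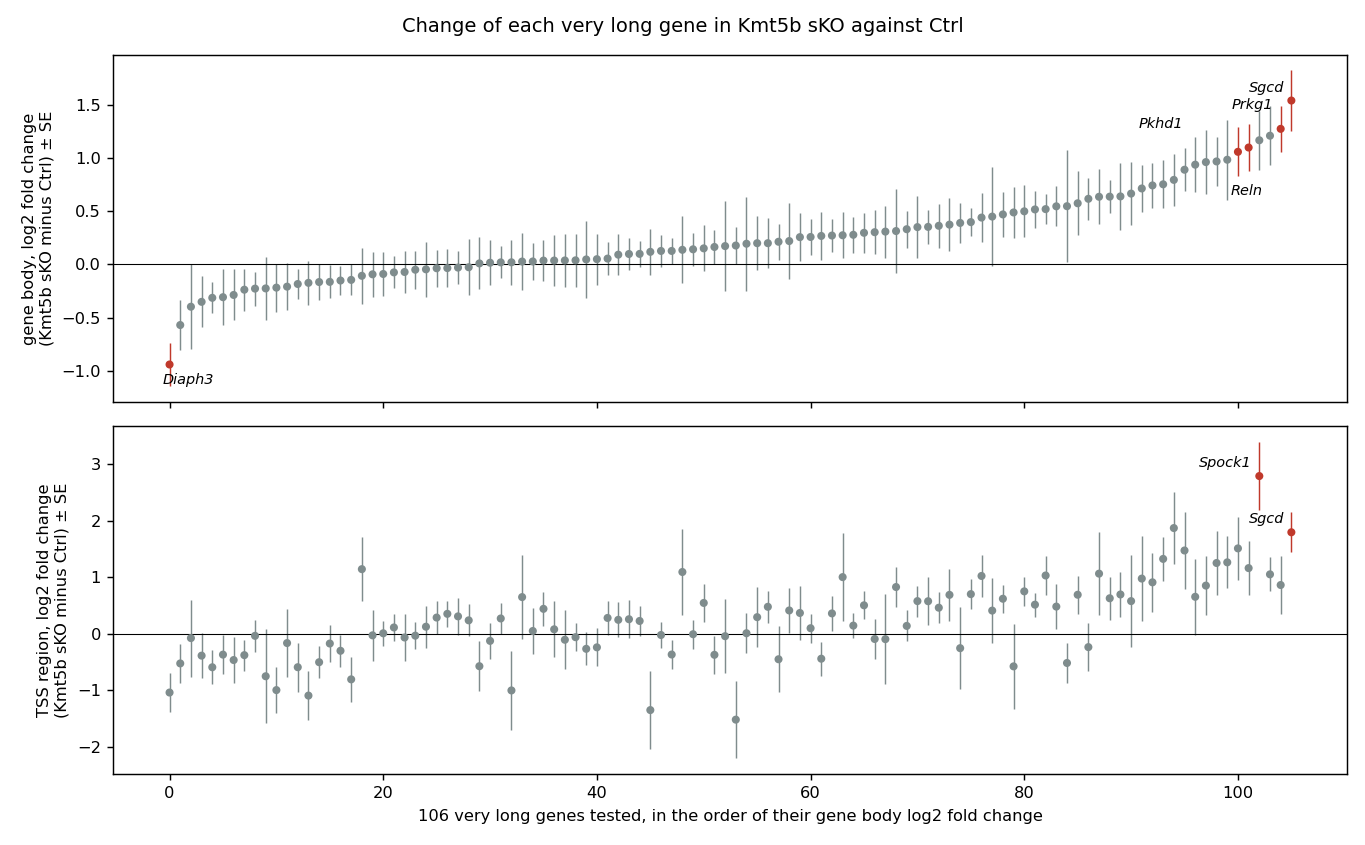
Log2 fold change (*Kmt5b* sKO minus Ctrl) with its SE for the 106 very long genes tested, in the gene body (top) and TSS region (bottom), both in the order of the gene body value; genes called at an adjusted p under 0.1 are red and named. The gene body values run from -0.94 for *Diaph3* to 1.54 for *Sgcd* with 77 of 106 above 0, and TSS values scatter more widely, from -1.52 to 2.79.

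The median change was larger in longer classes above 100 kb. The median gene body log2 fold change was 0.01 at 30 to 100 kb, 0.04 at 100 to 200 kb, 0.11 at 200 to 400 kb in 356 genes, and 0.17 over 400 kb. It was 0.04 for genes under 10 kb, so it did not rise over the whole range. The TSS region went from a median of 0.05 under 10 kb to 0.15 at 200 to 400 kb and 0.23 over 400 kb. Within the very long genes no steady increase was seen. The gene body median was 0.23 in 52 genes of 400 to 500 kb, 0.04 in 33 genes of 500 to 700 kb, 0.09 in 11 genes of 700 to 1000 kb and 0.41 in 10 genes over 1000 kb. Genes are not replicates, and these medians are given as a description.

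**Figure D4:**
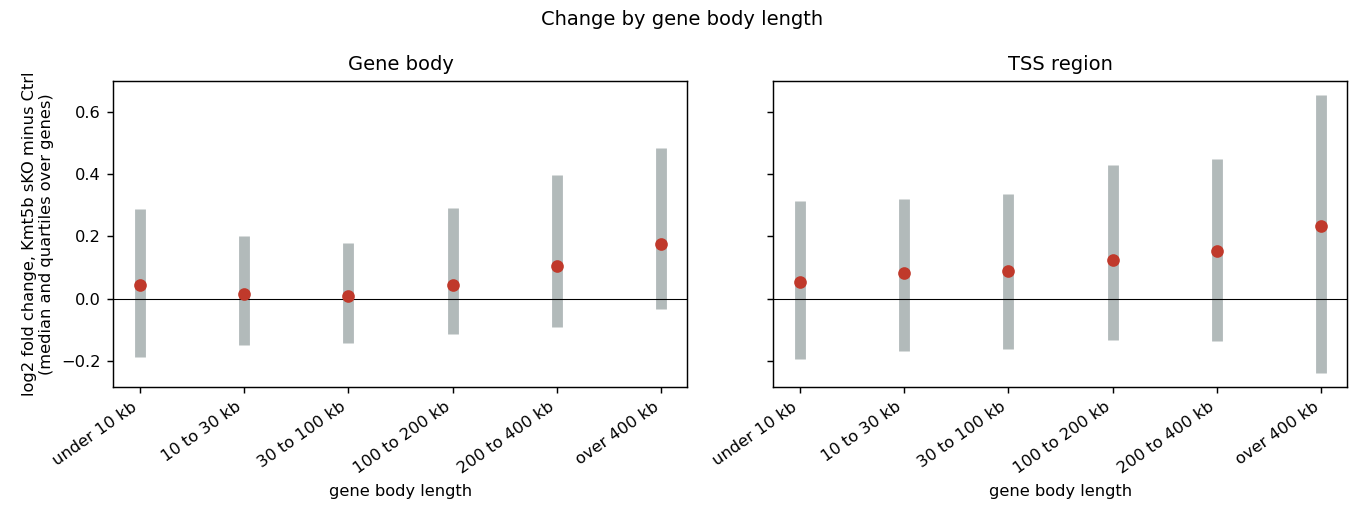
Median (red points) and quartiles (grey bars) over genes of the log2 fold change, *Kmt5b* sKO minus Ctrl, in classes of gene body length, for the gene body (left) and TSS region (right). The medians over 400 kb, 0.17 and 0.23, stand highest, and in both panels the quartiles of that class cross 0.

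By library, the median of log2(value + 0.5) over the very long genes was 1.95, 2.40 and 2.01 in Ctrl, compared with 2.33, 2.43 and 2.36 in *Kmt5b* sKO. Ctrl replicates 1 and 3 stood low, whereas Ctrl replicate 2 lay among the mutant libraries. Ctrl replicate 3 was the lowest library in 44.3% of the very long genes, beside 33.4% of all genes, and mutant replicate 3 the highest in 35.8%, beside 19.5%. Without Ctrl replicate 3, the median log2 fold change of the very long genes was 0.10 and that of all genes -0.01, with 64 of 106 positive. Without any other library it lay between 0.14 and 0.23. Below and above the very long genes' median gene body level, the median gene body log2 fold change was 0.17 and 0.19 and that of the TSS region 0.30 and 0.11, on a scale that understates low genes, and the difference was not tested. In the gene body it was 0.30 in 24 genes with a promoter CpG ratio up to 0.6 and 0.15 in 82 genes above it.

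By role, 19 genes tested were listed under the cytoskeleton, cell polarity and the dystrophin-associated complex. The list also holds *Reln* and *Spock1*, whose products are secreted, and genes of membrane traffic such as *Exoc4* and *Nbea*. This and the other role lists were drawn up with earlier results of these data known. Their shares are therefore given as a description and not as support. In the gene body 2 of the 19 rose (*Sgcd* and *Reln*), 1 fell (*Diaph3*) and 16 did not pass the test, so 15.8% were called beside 2.87% of all genes. Their median log2 fold change was 0.33 against 0.02 for all genes, with 17 positive, or 89.5% beside 53.9%. *Kalrn*, a guanine nucleotide exchange factor, measured 5.15, 5.12 and 3.94 TPM in Ctrl against 6.90, 9.18 and 6.58 TPM in *Kmt5b* sKO. Its groups were apart, but its log2 fold change of 0.62 was not called (limma adjusted p = 0.19).

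Of 16 genes for adhesion and axon guidance, 0 were called by limma in the gene body, beside 2.87% of all genes, and 4 had an unadjusted p under 0.05, or 25.0% beside 15.8%. Their median log2 fold change was 0.33, with 12 of 16 positive, beside 53.9% of all genes. *Fstl4*, which encodes a secreted follistatin-like protein, measured 0.56, 0.32 and 0.27 TPM in Ctrl against 0.82, 1.09 and 1.16 TPM in *Kmt5b* sKO. The mutant libraries were all higher, with a log2 fold change of 0.79 (limma adjusted p = 0.18).

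Of 18 genes for kinases, receptors and other signalling proteins, 1 rose (*Prkg1*), or 5.56% beside 1.53% of all genes called higher, and 17 did not pass the test. Their median was 0.01, with 10 positive and 8 negative, the most even split of the lists. *Gpc6*, a glypican that binds growth factors at the cell surface, measured 4.64, 6.4 and 4.68 TPM in Ctrl against 2.78, 4.56 and 2.88 TPM in *Kmt5b* sKO, all below Ctrl. Its log2 fold change of -0.57 was not called (limma adjusted p = 0.30). *Atrnl1*, an attractin-like membrane protein, measured 8.63, 8.50 and 7.43 TPM in Ctrl against 6.71, 6.54 and 6.17 TPM in *Kmt5b* sKO. This too was below Ctrl in each library but not called, with a log2 fold change of -0.31 (limma adjusted p = 0.36).

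Of 13 regulators of transcription, chromatin and RNA, 0 were called by limma in the gene body, and 2, *Celf2* and *Zfp385b*, had an unadjusted p under 0.05, which at 15.4% is near the 15.8% of all genes. Their median was 0.10, with 10 positive. *Sox6*, a repressor of slow-fibre genes in muscle, measured 5.89, 5.82 and 1.94 TPM in Ctrl against 4.68, 4.34 and 7.03 TPM in *Kmt5b* sKO. The groups overlapped, and the log2 fold change of 0.31 was -0.15 without Ctrl replicate 3. In its TSS region all mutant libraries, at 17.37, 21.13 and 23.92 RPM, lay above the Ctrl libraries, at 12.83, 17.24 and 6.63 RPM. That log2 fold change of 0.83 was not called (limma adjusted p = 0.37). *Creb5*, a transcription factor of the CREB family, had TSS values of 9.68, 9.19 and 25.57 RPM in Ctrl against 6.56, 6.60 and 5.98 RPM in *Kmt5b* sKO, with Ctrl replicate 3 standing out. The 37 genes in none of the lists included *Pkhd1*, which rose, and 26 of them had a positive gene body log2 fold change, with a median of 0.17.

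Common fragile sites have been described at 15 of the very long genes, of which 10 could be tested. Of the 10, 1 rose, *Prkg1*, beside 1.53% of all genes called higher, and 9 did not pass the test. The median log2 fold change was 0.24, with 8 positive. *Exoc4*, a subunit of the exocyst that tethers secretory vesicles, measured 10.53, 12.22 and 10.17 TPM in Ctrl against 14.73, 16.15 and 16.86 TPM in *Kmt5b* sKO. The mutant libraries were higher throughout, but the log2 fold change of 0.52 ± 0.14 (SE) had a limma adjusted p of 0.14.

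*Dlg2*, a scaffold of postsynaptic membranes, measured 2.39, 4.2 and 2.11 TPM in Ctrl against 4.25, 4.25 and 5.38 TPM in *Kmt5b* sKO. Ctrl replicate 2 was close to the mutant libraries, and the log2 fold change of 0.63 was not called (limma adjusted p = 0.30). *Nbea*, neurobeachin, which acts in membrane traffic, measured 5.18, 6.27 and 5.80 TPM in Ctrl against 6.98, 8.14 and 7.29 TPM in *Kmt5b* sKO, also without overlap and not called, at a log2 fold change of 0.35. *Park2*, the ubiquitin ligase parkin, measured 1.1, 1.34 and 0.95 TPM in Ctrl against 1.53, 0.99 and 2.42 TPM in *Kmt5b* sKO, with overlap.

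For the other fragile-site genes tested, the libraries of both groups overlapped. *Wwox*, an oxidoreductase known as a tumour suppressor, had a gene body mean of 1.97 ± 0.19 TPM in Ctrl against 2.13 ± 0.30 TPM in *Kmt5b* sKO (SD, n = 3 each). *Immp2l*, a mitochondrial peptidase, had 1.74 ± 0.34 and 1.60 ± 0.19 TPM. The same held for *Sdk1*, a cell adhesion protein, with 1.51 ± 0.15 and 1.42 ± 0.17 TPM and for *Dpyd*, which degrades pyrimidines, with 0.91 ± 0.30 and 0.92 ± 0.08 TPM.

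**Figure D5:**
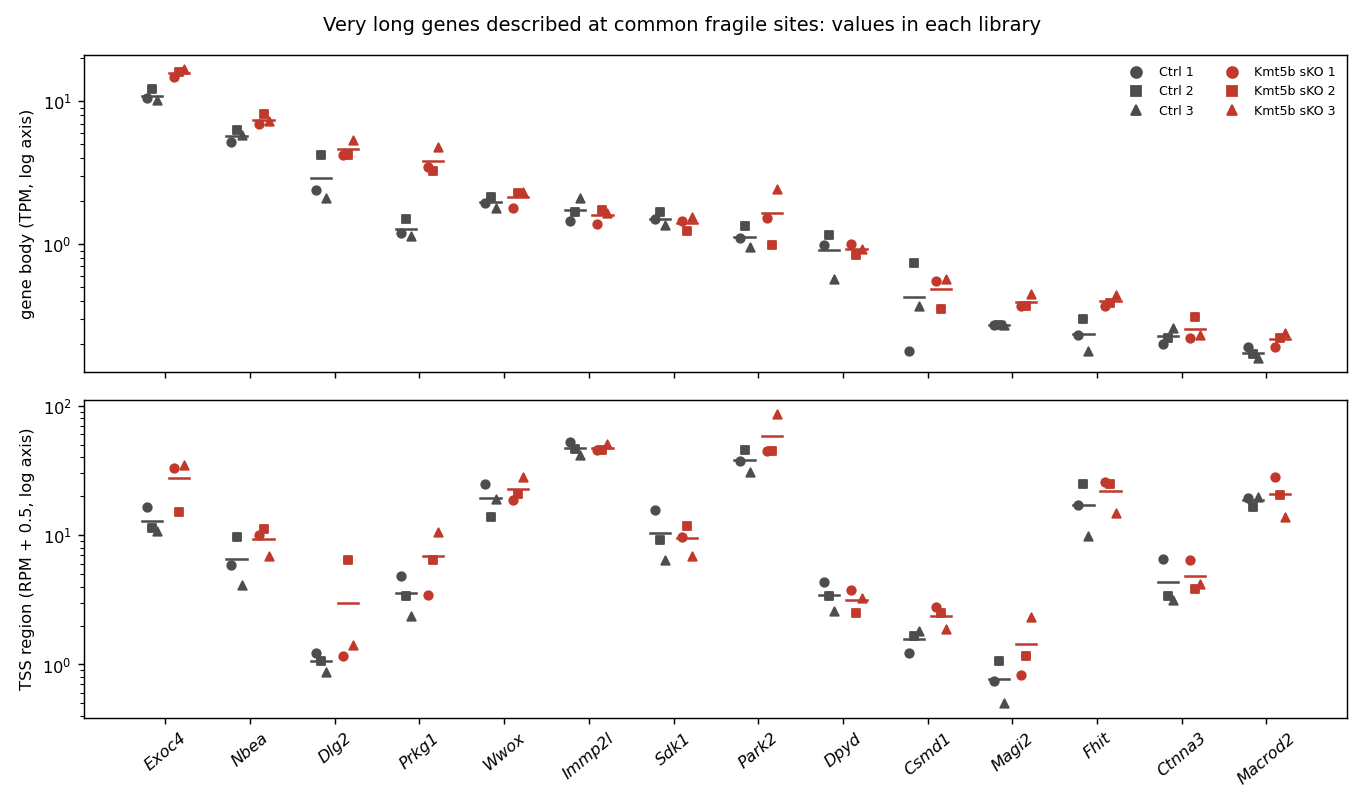
Gene body (top, TPM) and TSS region (bottom, RPM + 0.5) of 14 of the 15 very long genes described at common fragile sites, on log axes, ordered by gene body mean, with 1 point per library and bars for the group means. The right-hand 5 genes, from *Csmd1* to *Macrod2*, had a gene body mean under 0.5 and were not tested; *Fhit* and *Macrod2* among them had TSS means of 19.0 and 19.2 RPM.

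A few very long genes combined a measurable TSS region with a nearly empty gene body. *Fhit*, a diadenosine triphosphate hydrolase at a well studied fragile site, spans 1612 kb and had TSS values of 16.70, 24.13 and 9.28 RPM in Ctrl against 25.24, 24.43 and 14.26 RPM in *Kmt5b* sKO. Its gene body measured 0.23, 0.30 and 0.18 TPM in Ctrl against 0.37, 0.39 and 0.44 TPM in *Kmt5b* sKO. The gene body was low in all libraries and higher in each mutant library. In a fit without the filter on low values, its gene body log2 fold change was 0.29 (limma adjusted p = 0.52).

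*Macrod2*, an ADP-ribose hydrolase with a gene body of 1997 kb, had a TSS mean of 19.2 RPM and a gene body mean of 0.195 TPM over the 6 libraries. *Stpg2*, a sperm-tail protein gene of 504 kb, had 100.9 RPM and 0.17 TPM, and *Pcsk5*, a proprotein convertase gene of 404 kb, had 16.7 RPM and 0.40 TPM. In that fit without a filter, 0 of the 26 very long genes outside the filter were called in either region, where 320 of all 14063 genes were called in the gene body and 0 in the TSS region, so the TSS count holds no information on these 26. The smallest unadjusted limma p in the TSS region among them was 0.0014, for *Rgs6*, a regulator of G-protein signalling, with a log2 fold change of 1.57 and a limma adjusted p of 0.27.

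On values scaled per region, the pausing index of single very long genes gave no calls. None of 92 very long genes and none of all 11693 genes passed the adjusted threshold, 0% of either, and 4 very long genes, or 4.35%, had an unadjusted p under 0.05 in limma beside 3.87% of all genes. Their median log2 difference was 0.03 against 0.05 for all genes. *Kalrn* had an unadjusted p of 0.0067 in limma with a log2 difference of -0.92, its gene body values being higher and its TSS values overlapping. *Slc35f1*, a solute carrier, also lay lower, with a log2 difference of -0.81 on 1 to 4 TSS reads per library. On the higher side stood *Ncald*, the calcium sensor neurocalcin delta, with a log2 difference of 1.64 on 1 to 11 TSS reads, *Fstl4* with 1.26 and *Sox6* with 0.49.

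Of the 132 very long genes, 123 held no other listed gene wholly inside their body on the same strand, and 12 overlapped another annotated coding gene on that strand. The genes that held others included the 3 longest of those tested. *Gm20388*, a predicted gene model of 4434 kb and the longest listed, spanned 34 other listed genes, which held 36.5% of its reads, and its TSS region coincided with that of *Usp10*. The gene body of *Fgfr2*, as listed, ran over 2960 kb and 11 other genes with 49.8% of its reads, among them *Ate1* with 14.3%. *Gm37240*, of 1391 kb, contained *Arfip1* and *Fam160a1*, with 40.7% of its reads, and its TSS region was that of *Glt28d2*. In *Fam189a1*, *Nsmce3* held 31.2%. *Gm20696* held no listed gene, but its TSS region was that of *Eif4e3*, and 74.95% of its gene body lay under other annotated genes of the same strand. Of the 4 genes tested with over 10% of their reads in nested genes, 0 were called by limma in either region. *Fam189a1* lay at the threshold in the gene body, with a log2 fold change of 0.89 (limma adjusted p = 0.1001). It was called with a pseudocount of 1, without a trend, with centred libraries, with edgeR and with DESeq2. The gene body log2 fold change, over reads of several genes, was 0.10 for *Gm20388*, -0.15 for *Fgfr2* and 0.47 for *Gm37240*. Leaving out all 4 left the 5 gene body calls and 2 TSS calls, with medians of 0.17 and 0.19.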

How the data were processed

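PRO-seq was measured in 3 Ctrl and 3 *Kmt5b* sKO libraries. Per the labels, the submitters' processing notes name Trimmomatic 0.39, STAR 2.6.1d, Picard 2.18.16 and FastQC 0.11.8, and the build GRCm38. According to their methods, the authors counted sense-strand reads of protein-coding isoforms and listed a single isoform per gene. The TSS values that the authors deposited are RPM, although their header names TPM, and the gene body values that the authors deposited are TPM. A gene body value includes all sense reads between its ends, also those of genes nested in it. No column of the table was without a sample.

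Very long genes were selected from the listed coordinates. All 132 transcripts were found in GENCODE vM21 (GRCm38), 121 with the same ends. The promoter windows were read from the GRCm38 genome. Values were tested as log2(value + 0.5), and the pausing index as a log2 ratio without a pseudocount, with limma 3.58.1 (trend) in R 4.3.3. Genotype was the only term, and adjustment covered all autosomal genes tested. Whole reads (within 0.1 of a whole number for 100% of values under 1000 reads, for gene bodies checked in those under 2500 nt) were used in edgeR 4.0.16 and DESeq2 1.42.0. For very long gene bodies they are rounded estimates. Sequence matches between gene bodies used blastn 2.17.0. The tests were tried on simulated data.

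The named genes were the members called in a region (at most 8 per direction), those of smallest p where fewer than 3 were called, the 5 with the highest gene body mean, the 5 longest and those described at common fragile sites. *Zfp385b*, *Gm20696*, *Stpg2*, *Pcsk5* and *Rgs6* were named for values already looked at. The values of 2 genes that this rule names are not reported here. The members and lists were chosen with earlier results of these data known. Alternatives to the test, filter, pseudocount, centring and length limit, and the omission of each library, are given in the closing section.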

Additional observations from a re-analysis of the deposited data

How the results depend on the processing

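The count of very long genes called in the gene body, 5, became 0 at an adjusted p under 0.05, 1 with bodies over 600 kb, 4 without the filter on low values (*Diaph3* lost), 4 with a mean of at least 5 (*Prkg1* and *Reln* outside it, *Tmem117* added), 8 with a pseudocount of 1, 9 with libraries centred on their median, 13 without a trend in eBayes, 20 with edgeR and 27 with DESeq2, and lay between 0 and 5 with 1 library left out. All alternatives with more calls had more genes higher than lower. Of all 12446 genes, 357 were called in the main fit, 371 with a pseudocount of 1, 509 with centred libraries and 415 without a trend. With edgeR and DESeq2, 748 and 1295 were called. The count in the TSS region, 2, became 0 without a trend, without the filter on low values and with bodies over 600 kb. With edgeR and with DESeq2, *Diaph3* was added as 1 lower call. The count lay between 0 and 7 with 1 library left out. With the replicate block it was 0 in the gene body, where 0 of all genes were called, and 0 in the TSS region. The replicate numbers did not pair the libraries, as deviations of same-numbered libraries from their group means correlated at -0.153, -0.165 and -0.329 in the gene body. The pausing index gave 0 calls under every setting tried. The median gene body log2 fold change of the very long genes was positive under every setting tried, 0.10 to 0.23 with 1 library left out. The median of the pausing index changed sign, between -0.13 and 0.08 with 1 library left out.

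With 1 library left out, the gene body log2 fold change ranged from -0.16 to 0.86 for *Camk1d*, -0.11 to 0.89 for *Gphn*, -0.15 to 0.55 for *Sox6*, -0.15 to 0.17 for *Dpyd*, -0.19 to 0.024 for *Immp2l*, -0.31 to 0.015 for *Ncald* and -0.14 to 0.26 for *Snd1*. The other named genes kept their direction under the alternatives tried. *Spock1* and *Tmem117* entered the gene body calls under 5 and 7 alternatives. Adding the genes left out by symbol did not change the number of calls. Over all 12446 genes, the 357 gene body calls became 748 with edgeR, 1295 with DESeq2, 823 without Ctrl replicate 3, 200 without Ctrl replicate 2 and 0 without any other library. Removing the 4 tested genes with over 10% of their reads in other listed genes was chosen after seeing the data. TSS regions of very long genes held few reads, under 10 in 19 to 32 of 106 genes per library, which limits the TSS region and pausing index more than the gene body. The causes of these changes were not tested.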

Other observations

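Very long genes of chromosome X were outside the tests above, and their values are given for 6 of them. *Dmd*, which encodes dystrophin and has a gene body of 2257 kb, measured 4.26, 5.87 and 4.50 TPM in the Ctrl libraries and 8.51, 8.79 and 11.20 TPM in the mutant ones, each mutant library being above each Ctrl library. *Fgf13*, an intracellular fibroblast growth factor homologue, measured 4.25, 6.75 and 4.52 TPM and 8.90, 8.63 and 10.37 TPM, also without overlap. *Diaph2*, a formin like *Diaph3*, had means of 4.19 ± 0.43 and 3.76 ± 0.45 TPM (SD, n = 3 each). *Eda*, the ligand ectodysplasin, had 1.80 ± 0.53 and 1.34 ± 0.15 TPM, *Aff2*, a transcription elongation factor, 1.02 ± 0.38 and 1.61 ± 0.16 TPM, and *Pcdh11x*, a protocadherin, 0.143 ± 0.042 and 0.167 ± 0.040 TPM. These differences were not tested.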
